A study of Mus musculus with 9 samples.

Results

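The comparison set 3 libraries of tumors from mice given an anti-B7-H3 antibody against 3 libraries of tumors from mice given an IgG isotype control, 6 of the 9 libraries of the series. All tumors were skin allografts of YUMMER1.7 melanoma cells under the skin of C57BL/6J mice, and antibody treatment began once a tumor measured 20-50 mm3. YUMMER1.7 is 1 cell line, derived by ultraviolet irradiation from a mouse melanoma line with a mutant Braf, and the host mice were immunocompetent. The 3 remaining libraries, from mice given anti-PD1, helped to estimate the spread between libraries. The libraries hold total RNA of whole tumors, depleted of ribosomal RNA, so for every gene fewer cells of a type and less RNA per cell cannot be told apart. No label says that each library is a separate mouse, so each p-value speaks for the spread among these libraries, which may be technical.

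B7-H3, encoded by Cd276, is a surface protein of the B7 family of immune checkpoint ligands, found on many tumor cells and on antigen-presenting cells. An antibody to a surface protein can block it or, through its constant region, engage Fc receptors on macrophages and natural killer cells. Macrophages take up antibody-bound cells, and CD47 on the target cell restrains that uptake through SIRPα. The series asked how the immune subsets of these tumors differed between treatments.

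The libraries differed in more than treatment. The 12 major satellite genes, which annotate centromeric repeat DNA as short coding frames, held 92.0%, 87.0% and 90.8% of gene reads in the IgG libraries and 28.2%, 5.24% and 6.41% in the anti-B7-H3 libraries (exact permutation p = 0.1, two-sided, the smallest that 3 against 3 allows). They were removed before scaling, which left between 1252516 and 3546619 reads per IgG library and between 7238991 and 14408167 per anti-B7-H3 library. Genes for olfactory and vomeronasal receptors, sensory genes, served as a measure of background. They took 2191, 748 and 4769 CPM of the reads outside the satellite, with no TMM factor, in the IgG libraries. In the anti-B7-H3 libraries they took 195, 40.5 and 39.5 CPM (exact permutation p = 0.1). Pigment cell markers were near the limit of detection: Mlana had 0, 0 and 1 reads with IgG and 0 in each library with anti-B7-H3, and Pmel, Tyr, Dct and Tyrp1 had at most 7 reads in any of the 6 libraries. What this means for the share of tumor cells was not tested. Braf was at 26.8, 36.5 and 35.2 CPM with IgG and 29.7, 34.1 and 27.2 CPM with anti-B7-H3, and the groups overlapped.

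CPM of genes and lists below are scaled by TMM, a factor that aligns the libraries on most genes. Values of a gene are given for IgG replicates 1, 2 and 3 and then for anti-B7-H3 replicates 1, 2 and 3.

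**Figure D1:**
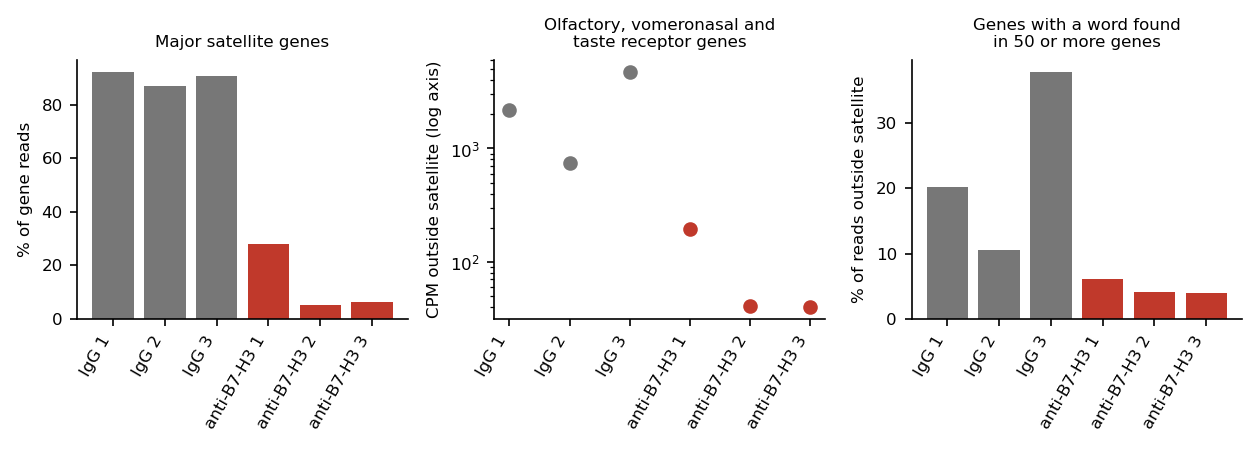
Share of gene reads in the major satellite genes (left, %), CPM of the olfactory and vomeronasal receptor genes outside the satellite (middle, log axis) and share of the other reads in genes that carry a word of 24 bases found in 50 or more genes (right, %), in each IgG (gray) and anti-B7-H3 (red) library. The middle panel title also names taste receptors, which were not counted. Satellite shares lie between 87.0% and 92.0% with IgG and between 5.24% and 28.2% with anti-B7-H3, and the groups do not overlap in any panel.

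Cd276 was measured first as the antibody's target. Cd276 was at 12.9, 19.4 and 16.0 CPM in the IgG libraries and at 19.7, 22.8 and 14.9 CPM in the anti-B7-H3 libraries, and the groups overlapped (log2 fold change 0.23 ± 0.26 SE, edgeR adjusted p = 0.764).

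Across 13484 tested genes, 5 were higher with anti-B7-H3 (0.0371% of those tested) and 474 were lower (3.52%), by edgeR's quasi-likelihood test at a Benjamini-Hochberg adjusted p under 0.05. Over all 13484 the median log2 fold change was 0.04, and 7333 were positive. At an unadjusted p under 0.05, 534 genes were higher (3.96%) and 1365 lower (10.1%). All anti-B7-H3 values were below all IgG values in 1535 genes (11.4%) and above them in 1173 (8.7%). These counts rested on single libraries: with IgG replicate 1, IgG replicate 3, anti-B7-H3 replicate 2 or anti-B7-H3 replicate 3 left out, 0 genes were higher and 8, 24, 12 and 11 lower, whereas without IgG replicate 2 there were 95 and 1785. Without anti-B7-H3 replicate 1 there were 38 and 369, and without the anti-PD1 replicates 1, 2 and 3 there were 6, 11 and 1 higher and 560, 308 and 196 lower. With the receptor level as a covariate, 0 genes were called in either direction. The receptor level did not overlap between the IgG libraries (748 to 4769 CPM) and the other libraries of the series (39.5 to 273 CPM). The covariate thus takes up much of the contrast. This fit, here and below, cannot tell treatment from background, whatever its calls or signs.

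The 5 higher genes were Ciita, Akap2, Eif2s3y, Ptges3l and 9930111J21Rik1. Ciita (chr16:10480059-10528418, + strand, GRCm38) encodes the transactivator that switches on the genes of MHC class II, the molecules that present peptides to CD4+ T cells. Ciita was at 24.8, 16.0 and 10.7 CPM in the IgG libraries and at 33.0, 52.1 and 49.6 CPM in the anti-B7-H3 libraries, so every anti-B7-H3 library was above every IgG library (log2 fold change 1.34 ± 0.32 SE, edgeR adjusted p = 0.0445). Its IgG reads were 3.95 times the number that the receptor background predicts for its coding length, and its adjusted p lay between 0.00436 and 1 over 25 other settings, under the threshold in 10. Its log2 fold change ran from 0.20, with the receptor level as a covariate, to 1.69, without IgG replicate 1. Anti-PD1 tumors had a mean of 25.1 ± 7.75 CPM (SD, n = 3).

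The other 4 share sequence or position with partner genes, which makes their level uncertain. Akap2 was at 23.3, 24.4 and 5.33 CPM in the IgG libraries and at 56.5, 132 and 143 CPM in the anti-B7-H3 libraries (log2 fold change 2.53 ± 0.54 SE, adjusted p = 0.037). It is a kinase anchoring protein whose coding bases all lie inside Pakap, and Pakap went the other way, from 409.7, 260.5 and 514 to 135, 54.9 and 60.02 CPM. Their sum was 433, 285 and 519 CPM with IgG and 191, 187 and 203 CPM with anti-B7-H3. The Y-linked translation factor gene Eif2s3y was at 2.48, 2.81 and 2.13 CPM with IgG and 7.12, 7.47 and 14.6 CPM with anti-B7-H3. Its X-linked copy Eif2s3x was at 86.4, 107 and 90.6 CPM against 117, 136 and 144 CPM, and Ddx3y, a second Y-linked gene, was at 73.0, 87.7 and 99.2 against 108, 78.9 and 76.3 CPM with overlapping groups. Ptges3l had 2 reads in the IgG libraries together and 145 in the anti-B7-H3 libraries, a pooled ratio of 12.6 (95% counting interval 3.43 to 105), and shares its exons with the readthrough gene Gm27029. The interferon-inducible GTPase-like gene 9930111J21Rik1 was at 5.96, 10.7 and 9.597 CPM against 24.99, 32.5 and 27.6 CPM, while its neighbor copy 9930111J21Rik2 overlapped between the groups.

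Ciita belongs to the list of MHC class II genes: 10 of 11 tested members had a positive log2 fold change, with a median of 1.20, and 1, Ciita itself, passed the test. H2-Aa was at 235, 121 and 32.0 CPM in the IgG libraries and at 246, 361 and 575 CPM in the anti-B7-H3 libraries. For H2-Ab1 the values were 216, 87.4 and 57.6 against 191, 291 and 502 CPM, and for H2-Eb1 262, 112 and 42.7 against 262, 370.3 and 539 CPM. H2-Ab1 overlapped between the groups, H2-Aa and H2-Eb1 were lowest with anti-B7-H3 just above IgG replicate 1, and none of these 3 chains of the class II molecules passed the test (adjusted p = 0.282, 0.246 and 0.241). Over the 9 fits that left out 1 library the list median ran from 0.91 without anti-B7-H3 replicate 3 to 1.69 without IgG replicate 1, and it was -0.46 once the receptor level entered the model.

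Class II promoters are known for a conserved module that includes the Y box, and the stretches before 2 of the starts are shown because Ciita, which acts on this module, is among the called genes. The capitals mark the letters CTGATTGG, searched on both strands. The sequences are from RefSeq on GRCm38.p6.
H2-Aa (chr17:34287824-34287934, - strand): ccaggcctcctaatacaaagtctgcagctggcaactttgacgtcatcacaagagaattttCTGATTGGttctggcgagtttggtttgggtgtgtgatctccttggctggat
H2-Eb1 (chr17:34305745-34305866, + strand): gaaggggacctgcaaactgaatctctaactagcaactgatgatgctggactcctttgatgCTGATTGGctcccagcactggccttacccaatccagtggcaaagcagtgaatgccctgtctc
The match begins 51 bases before the start of H2-Aa and 62 bases before that of H2-Eb1. Of the 11 members of the class II list with a promoter entry, 4 held a match in 300 bases of any of their entries, while 4.70% of all 27025 genes and 4.10% of all 32851 entries did. H2-Ab1 had no entry. A match describes letters only.

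Genes of antibody-dependent uptake were higher in value without passing the test. All 24 tested members of the list of Fc receptor signaling and phagocytosis had a positive log2 fold change, with a median of 0.88. Of them 13 were above every IgG library, 16 had an unadjusted p under 0.05 and 0 passed at an adjusted p under 0.05. Of all 13484 tested genes 7333 were positive, 8.7% were above every IgG library and 3.96% were higher at an unadjusted p under 0.05. Some lists outside immunity were also mostly positive, with 32 of 40 ribosomal protein genes and 22 of 25 genes of hypoxia and glycolysis. The circadian clock list went the other way, with 4 of 17 positive. Lyn was at 46.2, 42.4 and 27.7 CPM in the IgG libraries and at 56.5, 83.3 and 106 CPM in the anti-B7-H3 libraries, Lyn being a Src family kinase downstream of Fc receptors (log2 fold change 1.05 ± 0.28 SE, adjusted p = 0.0693). Cybb, which encodes the oxidase subunit that makes superoxide in phagocytes, was at 31.8, 19.1 and 14.9 CPM against 33.8, 66.2 and 114 CPM (adjusted p = 0.0715). The kinase gene Btk was at 3.97, 4.21 and 5.33 against 8.81, 8.86 and 13.8 CPM. Prkcd, a protein kinase C that is not a member of this list, was at 36.3, 42.4 and 17.1 against 48.3, 73.9 and 76.7 CPM. Btk had 28 reads in the IgG libraries together, 1.66 times the receptor background. In each of these 4 genes all anti-B7-H3 libraries were above all IgG libraries, and anti-B7-H3 replicate 3 was the highest.

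Macrophage markers followed with a median of 0.85 and 21 of 24 members positive, and 0 passed. Adgre1 was at 65.6, 53.7 and 25.6 CPM in the IgG libraries and at 94.0, 112 and 208 CPM in the anti-B7-H3 libraries (log2 fold change 1.48 ± 0.50 SE, adjusted p = 0.179). It encodes the macrophage surface protein F4/80. Csf1r, the receptor for the macrophage growth factor CSF1, was at 187, 165 and 75.7 against 264, 212 and 336 CPM, and the monocyte chemokine receptor Ccr2 at 5.96, 6.74 and 8.53 against 20.5, 14.5 and 31.2 CPM. The pan-leukocyte phosphatase gene Ptprc (CD45) was at 81.0, 55.1 and 39.5 against 93.6, 165 and 228 CPM, with no overlap and an adjusted p of 0.0572. Itgax, a marker of dendritic cells and some macrophages, was at 52.6, 34.8 and 21.3 against 37.0, 108 and 101 CPM, and the groups overlapped. Anti-PD1 tumors had means of 127 ± 82.6 CPM for Adgre1, 280 ± 141 for Csf1r, 29.6 ± 23.2 for Ccr2 and 28.9 ± 7.47 for Itgax (SD, n = 3). The summed level of the macrophage list was 5251, 5146 and 4962 CPM with IgG and 5563, 6923 and 6968 CPM with anti-B7-H3.

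The series title also names CD47, the signal that restrains uptake. Cd47 was at 71.0, 70.5 and 50.1 CPM in the IgG libraries and at 88.2, 93.0 and 120.0 CPM in the anti-B7-H3 libraries, with no overlap (log2 fold change 0.64 ± 0.19 SE, adjusted p = 0.109). In anti-PD1 tumors Cd47 had a mean of 100 ± 3.94 CPM (SD, n = 3). Its receptor gene Sirpa was at 90.9, 75.02 and 41.6 against 107, 105 and 163 CPM, and the activating relative Sirpb1c at 5.96, 6.46 and 4.27 against 9.84, 19.7 and 32.5 CPM. Thbs1, a secreted CD47 ligand, was at 64.1, 84.9 and 64.0 against 97.5, 128 and 228 CPM (log2 fold change 1.08 ± 0.29 SE, adjusted p = 0.0667). The groups did not overlap in any of these 4 genes, and none passed the test. The phagocytosis checkpoint list had a median of 0.83, and 14 of 15 tested members were positive. Its median turned to -0.31 under the receptor covariate, and its summed level overlapped, at 6207, 7718 and 4816 against 7734, 7102 and 5715 CPM.

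Among the B7 family and other checkpoint ligands, 14 of 15 tested members were positive, with a median of 0.49 and 0 calls. Icosl, the ligand of ICOS, was at 1.49, 1.12 and 1.07 against 3.76, 4.396 and 4.16 CPM, and the T cell inhibitory ligand gene Vsir (VISTA) at 26.3, 28.7 and 16.0 against 37.3, 39.7 and 45.7 CPM, both without overlap. Icosl had 8 reads in the IgG libraries together, 0.905 times the receptor background, so its IgG level cannot be told from background. Cd274, which encodes PD-L1, was at 31.3, 10.7 and 5.33 against 9.97, 40.6 and 58.4 CPM, so that IgG replicate 1 stood above anti-B7-H3 replicate 1. Pdcd1, which encodes PD-1, was at 5.46, 1.12 and 2.13 against 2.59, 7.26 and 8.57 CPM and also overlapped. The list's median was 0.78 without IgG replicate 2, 0.32 without IgG replicate 3, 0.16 among genes above 3 times the background and -0.20 under the receptor covariate.

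**Figure D2:**
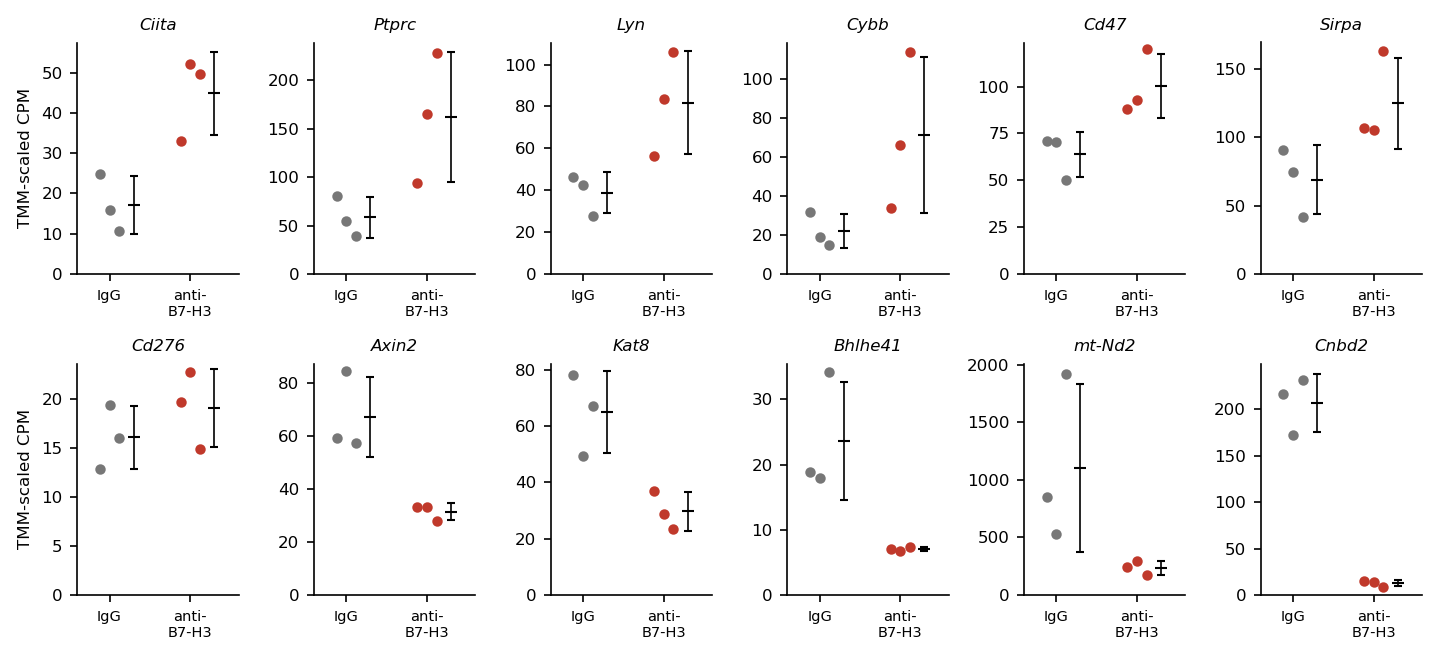
TMM-scaled CPM of 12 genes in the 3 IgG (gray) and 3 anti-B7-H3 (red) libraries; bars give the mean and SD of each group, and each axis starts at 0. Ciita, Bhlhe41, Kat8, mt-Nd2 and Cnbd2 passed the test; Ptprc, Lyn, Cybb, Cd47, Sirpa and Axin2 did not overlap but did not pass, and Cd276 overlapped.

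Lymphocyte markers were sparse, and Cd3e, Cd4 and Cd8a overlapped between the groups. Cd3e was at 5.46, 0.562 and 5.33 CPM in the IgG libraries and at 3.37, 5.09 and 4.48 CPM in the anti-B7-H3 libraries (log2 fold change 0.35 ± 0.78 SE, adjusted p = 0.9), and its reads with IgG were 3.70 times the receptor background. Cd4 was at 0.993, 2.81 and 6.398 against 5.05, 3.07 and 3.83 CPM, and Cd8a at 11.4, 1.69 and 2.13 against 4.14, 11.2 and 10.8 CPM. The T cell list had a median of 0.41 with 12 of 17 members positive, the CD8 and cytotoxic list 0.72 with 11 of 15, and the natural killer list -0.47 with 3 of 8. None of their members passed the test, and 9, 9 and 6 of the members tested had IgG reads under 3 times the receptor background. Of the T cell list 2 members were above every IgG library and 1 below, and of the CD8 and natural killer lists 1 each was below, Eomes, a transcription factor of cytotoxic cells that both lists hold, at 3.97, 3.09 and 20.3 against 0.777, 1.40 and 1.17 CPM (adjusted p = 0.0629). The medians of the T cell list ranged from 0.07 without anti-B7-H3 replicate 3 to 0.91 without IgG replicate 1. The natural killer median ranged from -0.62 without IgG replicate 1 to 0.14 without IgG replicate 3, and its sign changed in 9 of 26 settings. With the receptor covariate the CD8 median was -1.26. The B and plasma cell list had 5 of 6 members positive, 3 of them above every IgG library, with a median of 0.82, or -0.99 with that covariate. Over all tested genes 8.7% were above every IgG library and 11.4% below.

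Interferon genes were positive in value and overlapped between the groups. All 28 tested genes of the type I list were positive, with a median of 0.42, and 22 of 24 of the interferon gamma list, with a median of 1.00; 0 of either list passed the test and 0 were above every IgG library. The summed interferon gamma list was at 3753, 1100 and 1764 CPM with IgG and 1442, 4482 and 5388 CPM with anti-B7-H3, so that IgG replicate 1 was above anti-B7-H3 replicate 1. Without anti-B7-H3 replicate 2 the type I median was 0.07, and without IgG replicate 1 it was 0.99. The guanylate-binding protein gene Gbp5 went against its list, at 323, 93.3 and 811 against 71.4, 106 and 105 CPM (log2 fold change -2.10 ± 0.68 SE, adjusted p = 0.17). MHC class I presentation had 23 of 23 members positive, with a median of 0.67 and 0 calls. The chemokine list had 23 of 24, with a median of 0.98 and 8 members above every IgG library, against 8.7% of all tested genes. Under the receptor covariate the medians were -0.50 for interferon gamma, -0.36 for type I and -0.83 for class I. Without IgG replicate 1 the interferon gamma median was 1.79 and the class I median 1.33.

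Tlr13, an endosomal sensor of bacterial RNA, was at 14.4, 9.27 and 8.53 against 19.7, 27.2 and 47.8 CPM, and Il10ra, a chain of the interleukin 10 receptor, at 23.8, 17.1 and 11.7 against 28.5, 43.1 and 47.0 CPM, both without overlap and without passing the test (adjusted p = 0.105 and 0.083). Lysosome genes had 24 of 25 members positive, with a median of 0.48 and 10 above every IgG library, and complement genes 17 of 19 with a median of 0.75. Of all tested genes 8.7% were above every IgG library. All 19 tested genes of cholesterol synthesis were positive, with a median of 0.49, and 8 had an unadjusted p under 0.05. Of all tested genes 3.96% were higher at that unadjusted p. Lss, which closes the sterol ring, was at 18.9, 22.8 and 16.0 against 27.1, 38.3 and 33.2 CPM (adjusted p = 0.08), and Msmo1, a sterol oxidase, at 11.9, 23.3 and 13.9 against 24.2, 39.8 and 41.1 CPM. No gene of these 3 lists passed the test. Under the receptor covariate the medians turned to -0.37 for cholesterol, -0.28 for lysosome and -0.57 for complement.

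Growth and signaling lists held 0 calls. The DNA replication list had a median of 0.19, the mitosis list 0.08, the p53 list 0.16 and the MAPK output list 0.10. Ctnnb1, which encodes β-catenin, was at 522, 637 and 437 against 614, 644 and 699 CPM with overlapping groups (adjusted p = 0.597). Axin2, a feedback inhibitor and target of β-catenin, was at 59.1, 84.6 and 57.6 CPM with IgG and 33.4, 33.1 and 28.0 CPM with anti-B7-H3, without overlap (log2 fold change -1.11 ± 0.31 SE, adjusted p = 0.0765). The β-catenin list as a whole had 12 of 16 members negative and a median of -0.09. Bbc3, which encodes the cell death protein PUMA, was at 13.9, 8.15 and 14.9 against 4.66, 5.30 and 5.98 CPM (adjusted p = 0.0718).

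Skeletal muscle genes varied most between libraries of a group. Their summed level was 511, 625 and 671 CPM with IgG and 2436, 174 and 10439 CPM with anti-B7-H3, so that anti-B7-H3 replicates 1 and 3 stood above the IgG libraries and replicate 2 below them. The median over 20 members was 3.33 with 0 calls, and 1.20 without anti-B7-H3 replicate 3. Myosin heavy chain gene Myh4 was at 21.4, 48.0 and 14.9 against 272, 0.0698 and 1510 CPM. Replicate 3 was also the library with the highest Ptprc, Cybb, Adgre1, Cd47 and Thbs1. The part of muscle in those values was not tested, and without replicate 3 the medians of the Fc receptor, macrophage and chemokine lists were 0.75, 0.52 and 0.57. With the receptor level as a covariate the 3 medians were -0.27, -0.32 and -0.74.

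**Figure D3:**
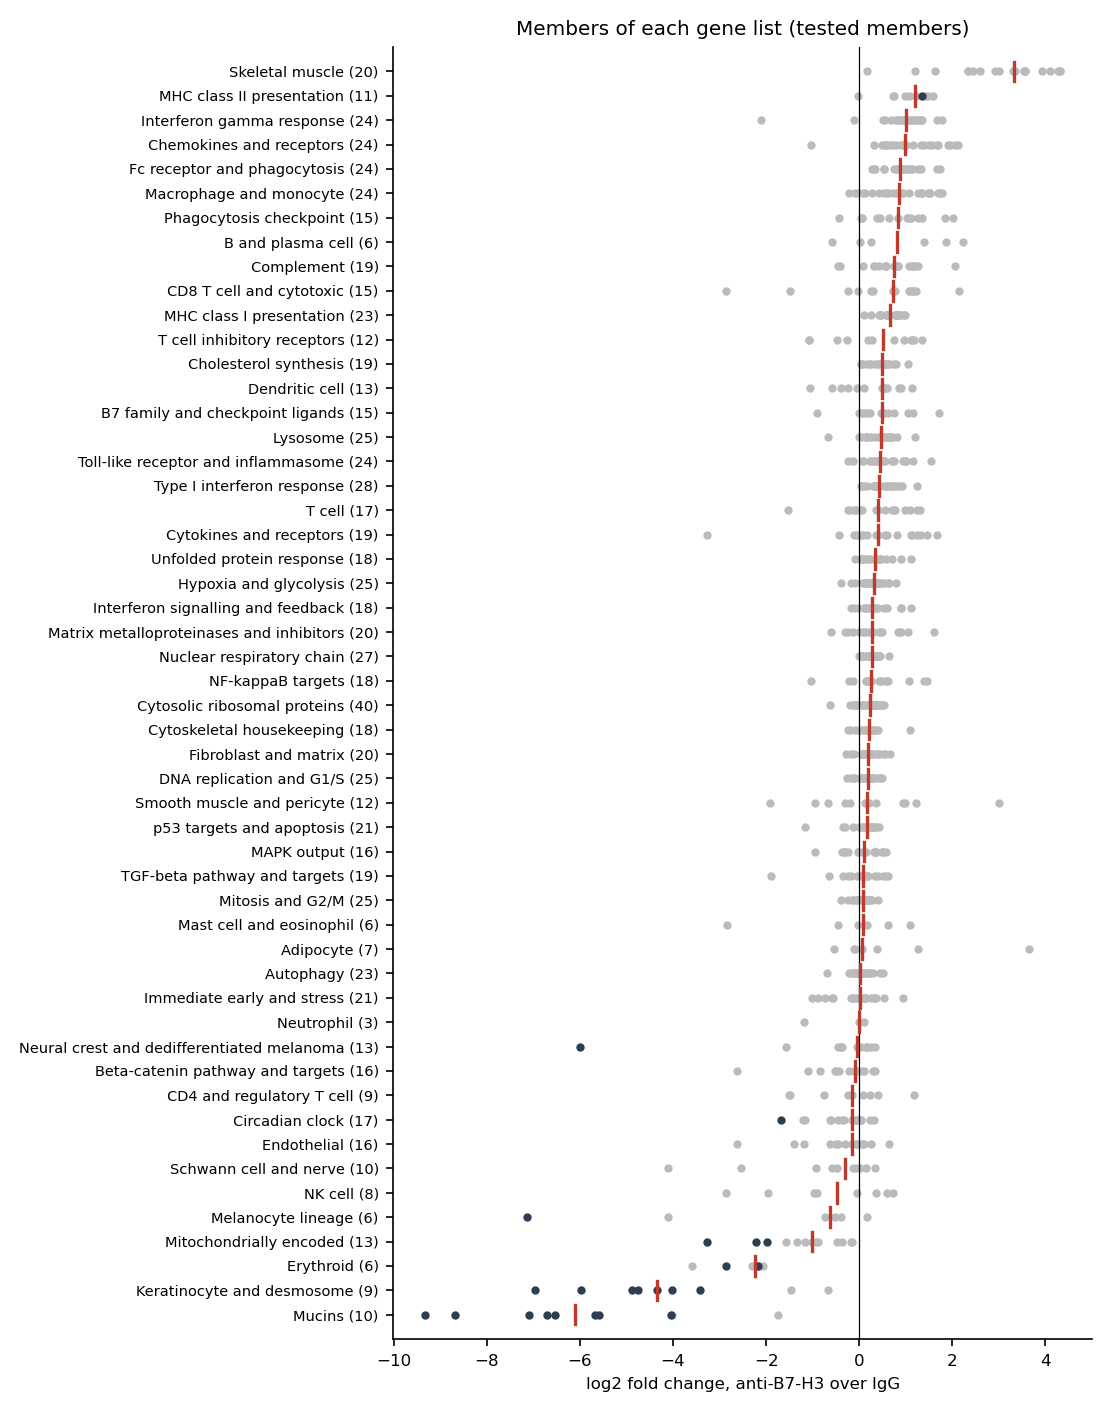
Log2 fold change, anti-B7-H3 over IgG, of each tested member (dots; dark where it passed the test) of the lists with 3 or more tested members, and the list median (red bars); the number of tested members is in parentheses. Medians run from -6.11 for mucins to 3.33 for skeletal muscle, against 0.04 for all tested genes.

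The 474 lower genes were sorted by sequence and by background. In 60 of them (12.7%, against 435 of 13484 tested, 3.23%) the most abundant isoform held a word of 24 bases that also occurs in 50 or more annotated genes. A further 254 had no such word but fewer than 3 times the IgG reads expected from the receptor background at their coding length, 105 had between 3 and 10 times, and 55 had 10 times or more. Under 3 times lay 263 of all 474 (55.5%), against 2611 of all tested (19.4%). The median lower gene had 9.39 CPM with IgG and 0.304 CPM with anti-B7-H3, and its log2 fold change was -4.94 as fitted, or -4.92 with the 32 genes without an anti-B7-H3 read set at the bound that 3 counts allow.

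Sequences of genes with recurrent words are shown because the 60 held 16.5%, 7.08% and 33.6% of reads outside the satellite with IgG, of 18.4%, 7.93% and 37.6% in all 474 lower genes. Capitals mark the word of 24 bases found in the largest number of annotated genes; each stretch is coding sequence of the isoform with most reads, from GENCODE M21 on GRCm38.
G530012D18Rik (chr1:85577103-85577162, + strand): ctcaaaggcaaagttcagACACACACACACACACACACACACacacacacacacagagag
Pakap (chr4:57637908-57637967, + strand): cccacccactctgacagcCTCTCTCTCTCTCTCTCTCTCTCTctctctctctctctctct
Rnf214 (chr9:45867324-45867383, - strand): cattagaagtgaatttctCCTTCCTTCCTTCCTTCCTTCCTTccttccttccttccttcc
Stag3 (chr5:138290344-138290403, + strand): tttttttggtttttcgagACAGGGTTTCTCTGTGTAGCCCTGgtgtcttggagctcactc
Cnbd2 (chr2:156356526-156356571, + strand): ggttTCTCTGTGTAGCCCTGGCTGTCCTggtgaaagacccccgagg
Sirt5 (chr13:43385734-43385787, + strand): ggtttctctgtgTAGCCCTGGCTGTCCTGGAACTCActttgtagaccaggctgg
Chpt1 (chr10:88487147-88487206, - strand): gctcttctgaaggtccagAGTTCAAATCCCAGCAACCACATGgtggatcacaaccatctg
Ocrl (chrX:47944488-47944547, + strand): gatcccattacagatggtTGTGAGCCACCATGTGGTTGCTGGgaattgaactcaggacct
Gm21962 (chr3:137671596-137671655, + strand): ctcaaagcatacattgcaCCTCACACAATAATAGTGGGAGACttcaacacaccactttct
The word of G530012D18Rik is a run of alternating A and C found in 3391 genes, that of Pakap a run of alternating C and T found in 1261, and that of Rnf214 a run of CCTT units found in 263. Stag3, Cnbd2 and Sirt5 share a stretch of at least 21 bases, part of the short interspersed repeat B1, and their words occur in 909, 941 and 1274 genes. Chpt1 and Ocrl share 20 bases on opposite strands, which lie partly outside the capitals, and their words are found in 756 and 983 genes, and Gm21962 carries a word found in 70.

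Their levels followed the order of the receptor background within the IgG group. Rnf214 was at 5834, 2007 and 8881 CPM in the IgG libraries and at 376, 114 and 95.2 CPM in the anti-B7-H3 libraries (log2 fold change -4.84 ± 0.84 SE, adjusted p = 0.0233). G530012D18Rik was at 3623, 1211 and 6259 CPM in the IgG libraries and at 229, 64.1 and 44.4 CPM in the anti-B7-H3 libraries, and Gm21962 went from 8611, 3003 and 21604 to 657, 181 and 156 CPM. Sirt5, a mitochondrial deacylase, was at 15073, 7063 and 31965 against 3594, 1540 and 1012 CPM (adjusted p = 0.0291). In all 4 IgG replicate 3 was highest and IgG replicate 2 lowest of the group, as for the receptors. Cnbd2 was even within the groups, at 217, 172 and 231 against 15.4, 14.4 and 8.83 CPM (log2 fold change -4.01 ± 0.29 SE, adjusted p = 6.06e-05), and passed in 23 of 24 other settings. Genes with a recurrent word took 20.1%, 10.5% and 37.7% of reads outside the satellite in the IgG libraries and 6.18%, 4.12% and 3.99% in the anti-B7-H3 libraries. Left out before scaling, they leave 5 higher and 398 lower genes, an alternative chosen after seeing the data.

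**Figure D4:**
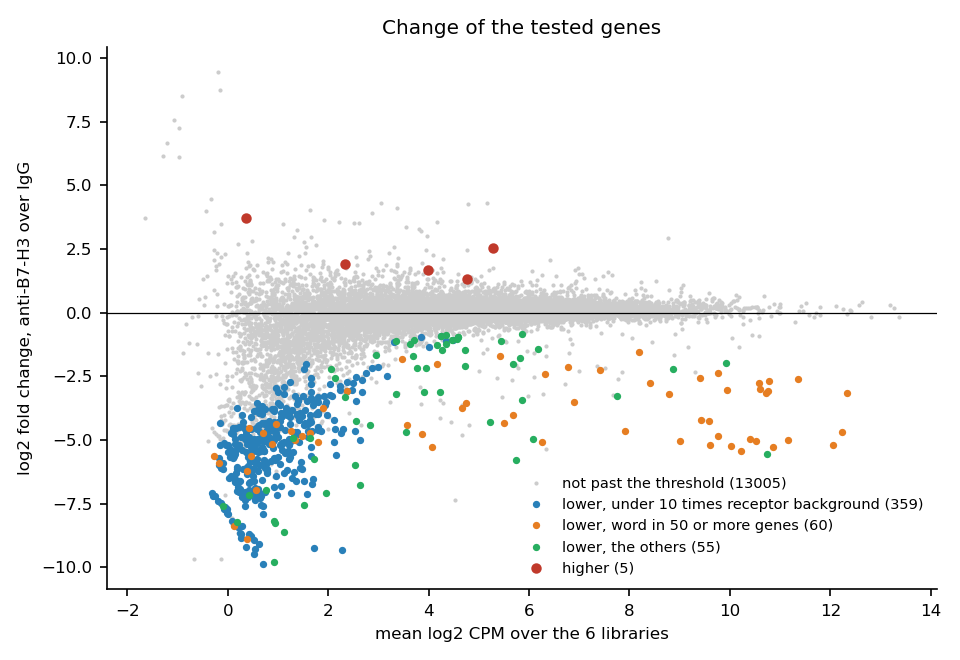
Log2 fold change, anti-B7-H3 over IgG, of the 13484 tested genes against their mean log2 CPM over the 6 libraries. The 474 lower genes are split into 60 with a recurrent word (orange), 359 others under 10 times the receptor background (blue) and the remaining 55 (green); the 5 higher genes are red.

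Mucin and keratinocyte genes fell from a low level. Of 12 mucin genes 10 were tested, of which 8 fell and all 10 were below every IgG library (list median -6.11 as fitted, -5.92 with Muc20 at its bound). Among all tested genes 3.52% were lower and 11.4% were below every IgG library. The expression filter before the test can be met by 1 group alone, so these genes could enter through the IgG libraries. The part of this filter in the mucin and keratinocyte counts was not tested. Muc6, a stomach mucin, was at 65.6, 21.1 and 171 CPM with IgG and 0.518, 0 and 0 CPM with anti-B7-H3 (log2 fold change -9.33 ± 1.34 SE, adjusted p = 0.0224), and Muc20 had 37 IgG reads and 0 anti-B7-H3 reads, at least 70.9-fold lower against a floor of 3 counts over the group (the 95% counting interval of the ratio begins at 54.9). Of 20 keratinocyte genes 9 were tested and 7 fell, among them Krt1 from 7.45, 5.34 and 6.398 to 0.648, 0.279 and 0.0650 CPM. IgG reads were under 3 times the receptor background in 8 of the 10 mucins and 6 of the 9 keratinocyte genes. Slc24a5, a pigment granule exchanger, was at 21.9, 14.0 and 30.9 against 0.259, 0.140 and 0.0650 CPM (adjusted p = 0.00492), and Foxd3, a neural crest factor, at 6.46, 1.97 and 18.1 against 0.259, 0 and 0.130 CPM. Their IgG reads were 9.56 and 3.07 times the background. Each was the only called member of its list. The melanocyte list had 1 of 6 tested members positive, with a median of -0.62. The neural crest list had 6 of 13 positive, with a median of -0.05. Of the coding bases of Slc24a5, 35.2% lie opposite to exons of Myef2.

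Of the 55 lower genes at 10 times the background or more without a recurrent word, 27 had at least 1 of 2 features, and the others had neither. In 14 of the 55 (25.5%) over 50% of the coding bases lie opposite to exons of another gene. This held for 89 of the 7312 tested genes at that level without a recurrent word (1.22%). A single coding exon was found in 21 of the 55 (38.2%), against 368 of the 7312 (5.03%). The level was set on IgG reads alone, so a gene could enter through the group where it was high. Gm26602 had 49.3 times the background with IgG and 2.17 times with anti-B7-H3. The part of this filter in the shares was not tested. Gm26602, opposite to R3hdm4, was at 16.9, 20.8 and 12.8 CPM with IgG and 0, 0.0698 and 0 CPM with anti-B7-H3, and R3hdm4 itself at 56.1, 53.9 and 21.3 against 59.8, 37.3 and 32.6 CPM. 1810049J17Rik, opposite to Golph3, was at 53.6, 30.6 and 18.1 against 0.130, 0.279 and 0.260 CPM, against 72.5, 57.0 and 87.4 against 51.3, 65.9 and 70.7 CPM for Golph3. Gm26566, opposite to Klhl9, was at 31.3, 26.4 and 11.7 against 0.259, 0 and 0.130 CPM, against 96.8, 111 and 125 against 118, 123 and 138 CPM for Klhl9. Gm26602, 1810049J17Rik and Gm26566 were named because they were among the largest called falls, so their falling was set by the choice (edgeR adjusted p = 3.30e-04, 6.06e-05 and 0.00101). The partner overlapped between the groups in all 3 pairs, and the 3 falls passed in 24 of 25 other settings each. The partners R3hdm4, Golph3 and Klhl9, like the class II chains, Ddx3y, Sirt5 and Ptges3l, were chosen after their values were seen. The labels and file headers used here do not state whether counting used strand, so reads of the partners cannot be told apart.

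Among all tested genes of that level without a recurrent word, the 6877 with more than 1 coding exon had a median log2 fold change of 0.11, and 26 were lower (0.378%). The 340 with 1 coding exon had a median of 0.04, and 13 were lower (3.82%). The 89 opposite to exons of another gene had a median of -0.09, and 14 were lower (15.7%). None of the 3 classes held a higher gene. As the level was set on IgG reads alone, the filter itself favors lower genes, and its part in these shares was not tested.

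**Figure D5:**
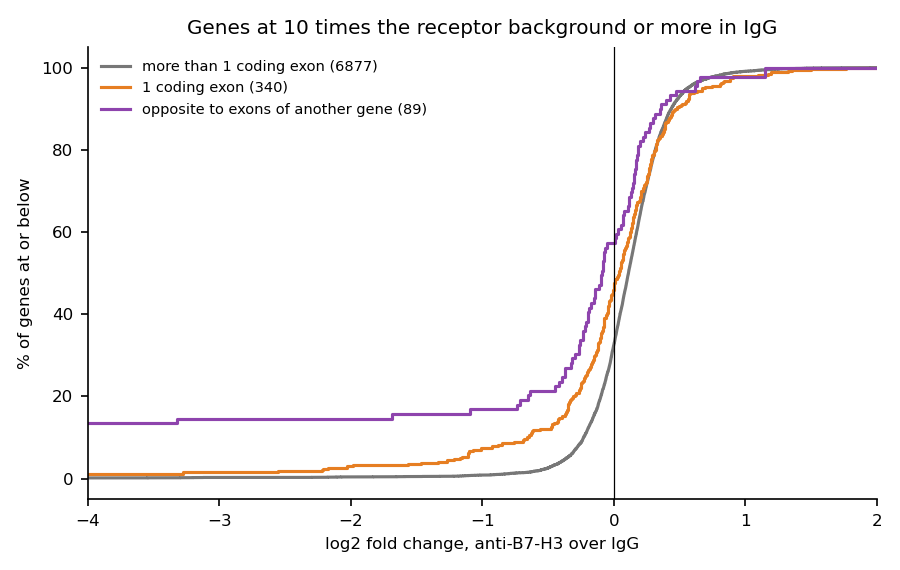
Cumulative share (%) of genes at or below each log2 fold change, anti-B7-H3 over IgG, for tested genes at 10 times the receptor background or more with IgG and no recurrent word: 6877 with more than 1 coding exon (gray), 340 with 1 coding exon (orange) and 89 with over 50% of their coding bases opposite to exons of another gene (purple). The purple class holds 14 lower genes, and its median is -0.09 against 0.11 for the gray class.

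Mitochondrially encoded genes were lower in value in all 13 members (median -1.01), and 3 passed, against 3.52% of all tested genes that passed as lower. mt-Nd2, a subunit of respiratory complex I, was at 854, 529.9 and 1925 CPM with IgG and 241, 292 and 174 CPM with anti-B7-H3 (log2 fold change -2.22 ± 0.45 SE, adjusted p = 0.0282). mt-Nd6, the one coding gene on the light strand, was at 593, 332 and 1421 against 141, 59.2 and 42.2 CPM, and mt-Nd5, which overlaps it, at 1641, 1219 and 3205 against 568, 529.8 and 431 CPM. The summed list overlapped between groups, at 18539, 20798 and 43088 against 15678, 22728 and 15389 CPM, and without IgG replicate 3 its median was -0.35. Nuclear genes of the respiratory chain had 26 of 27 members positive, with a median of 0.28 and 0 calls. Under the receptor covariate the 2 medians were 0.28 and -0.43.

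Among the remaining lower genes, Kat8, a histone H4 acetyltransferase, was at 78.0, 49.2 and 67.2 CPM with IgG and 36.9, 28.6 and 23.4 CPM with anti-B7-H3 (log2 fold change -1.12 ± 0.23 SE, adjusted p = 0.0257). Sp140, a chromatin reader of immune cells, was at 107, 80.6 and 143 against 21.4, 49.0 and 23.6 CPM, with 27.9% of its coding bases opposite to other exons. Tlcd2 was at 166, 125 and 315 against 27.2, 17.2 and 11.6 CPM. It holds a word found in 48 genes, just under the cut of 50. Its IgG replicate 3 was highest and replicate 2 lowest, as for the receptors. Bhlhe41, a repressor in the circadian clock, was at 18.9, 17.98 and 34.1 against 6.99, 6.77 and 7.41 CPM (adjusted p = 0.0224), with 58.9% of its coding bases opposite to another exon. The red cell genes Hbb-bt, a β-globin, and Alas2, the first enzyme of heme synthesis, also fell, from 43.7, 16.3 and 33.1 to 3.50, 9.63 and 6.76 CPM and from 6.46, 7.31 and 32.0 to 0.777, 3.49 and 1.43 CPM. Hbb-bt shares nearly identical sequence with Hbb-bs, and the pair summed to 83.9, 95.8 and 328 CPM with IgG and 21.5, 61.0 and 33.2 CPM with anti-B7-H3.

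Between anti-B7-H3 and anti-PD1 tumors, 0 of the 479 called genes passed the test in the same edgeR model at an adjusted p under 0.05, and 25 had an unadjusted p under 0.05. Over all 13484 genes 0 passed and 864 had an unadjusted p under 0.05. The median log2 difference, anti-B7-H3 over anti-PD1, was -0.75 over the 474 lower genes and 0.62 over the 5 higher genes. Over all tested genes it was -0.014. The called genes were picked on the same anti-B7-H3 libraries, which pushes these 2 medians in those directions. They therefore do not show a shift against anti-PD1.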

How the data were processed

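The 9 total RNA libraries were used, 3 per antibody, and the 6 of IgG and anti-B7-H3 were compared. The deposited tables give, per transcript, an estimated count of reads and a TPM, per the file headers. The quantifier and its strand setting are not given in the sources used here. GRCm38 and FastQC 0.11.8 are named in the submitters' processing notes. The TPM values the authors deposited were not used. Of 58083 transcripts 57473 matched GENCODE M21, and 92.2% of the listed lengths equal the coding sequence. Estimated counts were summed over 22195 genes and rounded, the 12 satellite genes were removed, and TMM factors were computed on the rest. CPM values are relative to these scaled library sizes.

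The test was edgeR's quasi-likelihood test (edgeR 4.0.16, limma 3.58.1, R 4.3.3) in 1 model of all 9 libraries, at a Benjamini-Hochberg adjusted p of 0.05. DESeq2 1.42.0 was an alternative. The receptor background is the reads per coding base over 1454 receptor genes. Intervals and floors (95%, 3 counts) cover counting error only. Named genes were, at a mean of at least 1 log2 CPM, the 12 largest called changes in each direction, at 5 log2 CPM the 12 smallest p in each direction, the 3 smallest p of each of 52 lists, and genes of the study's question. A subset of these is printed. Members and lists were chosen with earlier results of these data known. On simulated counts at these library sizes (12872 genes), 19 of 100 genes changed by 2-fold and 97 of 100 changed by 4-fold were recovered, with 7 false calls. The simulation used 1 pooled profile, 1 common spread for all genes and no background difference between groups. Changed genes had to reach a minimum of expected reads. The real libraries differ in these respects, so recovery and false calls in them can be worse. The combination treatment was not analysed here. Some genes of the named set are not reported here.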

Additional observations from a re-analysis of the deposited data

How the results depend on the processing

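The counts of 5 higher and 474 lower genes depended on the processing. They were 57 and 968 with DESeq2, 0 and 376 with limma-voom (edgeR's test itself gave 534 higher at an unadjusted p under 0.05), 60 and 1009 with its quality weights, 21 and 466 with library totals outside the satellite as scale (which moves the median of all genes to 0.26), 1 and 78 with the satellite genes kept, 121 and 901 with no filter beyond 1 read, 0 and 4 with at least 10 reads in each library, and 1 and 113 with only the 6 libraries fitted. They were 0 and 0 with the receptor level as a covariate, 0 and 34 with its background subtracted, and 0 and 127 among genes at 3 times that background in each IgG library. Chosen after seeing the data, leaving out genes with recurrent words gave 5 and 398, and 1 and 38 with the background also subtracted. Leaving out 1 library gave from 0 to 95 higher and from 8 to 1785 lower genes. Same-numbered libraries correlated at -0.11, 0.16 and 0.002 in their deviations, which does not pair them under the criterion used (over 0.1 in every pair), and whether they share a batch is not known. A fit with the replicate block gave 3 and 456. The difference in satellite share was -76.7 percentage points, and -49.5 for the 3 satellite genes with most reads. With the receptor covariate the log2 fold change turned to -0.25 for Ptprc, -0.27 for Lyn, -0.27 for Cybb, -0.41 for Prkcd, -0.50 for Adgre1, -1.08 for Itgax, -0.89 for Sirpb1c, -0.44 for Vsir, -0.25 for Il10ra, -0.41 for Msmo1, -0.22 for Sirpa, -0.30 for Ctnnb1, -0.30 for Pdcd1, -0.91 for Cd274, -0.15 for Cd8a, -0.20 for Csf1r, -0.82 for H2-Aa, -0.67 for H2-Ab1 and -0.38 for H2-Eb1, and to 0.14 for Foxd3, 1.06 for Gbp5, 0.016 for mt-Nd2, 0.30 for mt-Nd6, 0.29 for mt-Nd5 and 0.38 for Sirt5. Myh4 was at -4.36 with quality weights, and over the fits that left out 1 library Cd4 ran from -0.046 (without IgG replicate 1) to 0.99 and Cd3e from -0.22 (without IgG replicate 2) to 1.00. The receptor level did not overlap between IgG and the other libraries, so values under its covariate cannot tell treatment from background. The cause was not tested. The IgG libraries held at most 3546619 reads outside the satellite and the anti-B7-H3 libraries at least 7238991, and the part of depth was not tested.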
